A study of Mus musculus with 19 samples.

Results

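The loci described here were the genes that encode small nuclear RNAs (snRNAs), taken as every gene typed snRNA in the RefSeq annotation of the mouse genome build mm10 (GRCm38.p6), the Rnu3 genes and Rn7sk included. There were 997 such genes among 49598 annotated genes on the 19 autosomes, X and Y. The class was selected on measured values, since snRNA genes were already known to lie under the highest ranked SOX3 ChIP-seq peaks of these same lists, so the heights of those peaks are given below as a description, with no test. SOX3 is a transcription factor of the SOX family that is made in early spermatogonia. SOX3 was profiled in mouse testis at postnatal day 7 by ChIP-seq and by ChIP-nexus, with 2 replicates each, among 19 labelled samples of the series, and no input, other factor or untreated group entered a comparison. The study's methods name a mouse SOX3 antibody for ChIP. Its reporting summary lists a rabbit SOX3 antibody for ChIP as well, without saying which library used which. Per the study's methods, all 4 libraries used tubules pooled from several C57BL/6J pups, so the material was not a purified cell type. ChIP-nexus trims the immunoprecipitated DNA with an exonuclease toward the protein contact before sequencing.

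The snRNAs are short non-coding RNAs. U1, U2, U4, U5 and U6 form the major spliceosome, U11, U12, U4atac and U6atac the minor spliceosome, U7 processes the ends of histone mRNAs, U3 processes ribosomal RNA and 7SK holds the elongation factor P-TEFb inactive. Most snRNA genes are transcribed by RNA polymerase II (Pol II), while U6, U6atac and 7SK are transcribed by RNA polymerase III (Pol III). Both kinds of promoter carry a proximal sequence element (PSE) that is bound by the SNAPc complex, and the Pol III kind carries a TATA-like element beside it. Mammalian genomes hold many further copies of each snRNA, most of which are taken to be pseudogenes without their own promoter.

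The promoters below were chosen because they show an architecture seen at many of the loci that carried peaks, beside 2 that lacked it, Gm22042 and Rnu6. Rnu3a is the only U3 gene shown, and the Rnu3b genes differed from it, as counted further below. Each run starts 80 bases before the annotated start and ends with the first 20 bases of the RNA, read 5′ to 3′ from the mm10 sequence. Capitals mark the 17 bases from the first ACC that starts 66 to 50 bases before the start, the usual place of the PSE, and any run of at least 6 A or T letters that starts 35 to 22 bases before the start, the usual place of a TATA-like element. For Rnu11 the start of the GENCODE M21 annotation was used, which lies 27 bases upstream of the RefSeq one.
Rnu1a1 (U1, chr11:87422787-87422886, plus strand): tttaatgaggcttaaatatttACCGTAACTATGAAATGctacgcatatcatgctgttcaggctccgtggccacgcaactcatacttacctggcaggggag
Rnu1b1 (U1, chr3:96360098-96360197, minus strand): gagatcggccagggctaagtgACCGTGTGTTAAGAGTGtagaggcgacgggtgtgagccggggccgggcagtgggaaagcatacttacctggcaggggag
Gm22042 (U1, chr4:51812628-51812727, minus strand): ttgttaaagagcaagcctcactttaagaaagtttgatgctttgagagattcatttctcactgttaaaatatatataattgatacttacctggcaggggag
Rnu2-10 (U2, chr11:101658158-101658257, plus strand): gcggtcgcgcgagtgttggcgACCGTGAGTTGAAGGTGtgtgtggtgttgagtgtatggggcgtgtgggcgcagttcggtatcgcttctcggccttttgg
Gm24407 (U4, chr5:115490174-115490273, plus strand): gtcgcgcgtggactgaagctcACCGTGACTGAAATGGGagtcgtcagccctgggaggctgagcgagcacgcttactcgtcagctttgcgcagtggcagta
Rnu5g (U5, chr9:65201822-65201921, minus strand): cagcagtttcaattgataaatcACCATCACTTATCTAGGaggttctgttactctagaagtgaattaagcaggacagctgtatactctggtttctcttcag
Rnu7 (U7, chr6:124741267-124741366, minus strand): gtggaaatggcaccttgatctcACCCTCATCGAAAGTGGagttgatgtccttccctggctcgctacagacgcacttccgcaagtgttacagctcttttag
Rnu12 (U12, chr15:83149565-83149664, plus strand): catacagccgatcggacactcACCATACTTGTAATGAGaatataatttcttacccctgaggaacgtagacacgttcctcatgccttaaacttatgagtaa
Rnu11 (U11, chr4:132270194-132270293, minus strand): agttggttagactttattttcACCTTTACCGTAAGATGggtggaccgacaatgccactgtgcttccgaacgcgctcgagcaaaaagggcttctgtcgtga
Rnu3a (U3, chr10:40258388-40258487, plus strand): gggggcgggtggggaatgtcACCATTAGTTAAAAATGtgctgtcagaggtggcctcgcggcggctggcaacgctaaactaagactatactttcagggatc
Rn7sk (7SK, chr9:78175614-78175713, minus strand): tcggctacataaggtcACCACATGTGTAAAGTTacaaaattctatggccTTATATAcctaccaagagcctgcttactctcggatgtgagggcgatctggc
Gm24019 (U6, chr10:79909115-79909214, plus strand): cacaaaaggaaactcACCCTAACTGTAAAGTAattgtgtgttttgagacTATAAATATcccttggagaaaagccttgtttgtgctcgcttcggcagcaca
Rnu6 (U6, chr17:13432120-13432219, minus strand): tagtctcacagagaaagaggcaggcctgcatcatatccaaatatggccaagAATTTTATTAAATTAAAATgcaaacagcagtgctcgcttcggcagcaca

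An ACC stood 60 to 58 bases before the start in the 9 Pol II-type genes shown other than Gm22042. In Rn7sk it stood at 64 bases before the start and in the U6 copy Gm24019 at 65, and both had an A/T run from 31 bases before the start. Gm22042, a U1 copy on chromosome 4, had the same first 20 bases of RNA as Rnu1a1 but neither element, and Rnu6 had an A/T run without the ACC.

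A ChIP-seq peak overlapped 54 of the 997 loci by at least 1 base in replicate 1 and 43 in replicate 2, with 41 loci occupied in both. These 41 loci are called occupied below. All 54 and all 43 were also covered at the start base, which is 5.42% and 4.31% of the loci. Of all 49598 genes, 30.3% had a replicate 1 peak over the start base, 24.8% a replicate 2 peak and 23.5% a peak in both replicates, against 4.11% of the snRNA loci in both. Peaks were thus found at a smaller share of snRNA loci than of all genes, and the loci that had one spread from rank 1 to rank 57028 in replicate 1 and from rank 1 to rank 13161 in replicate 2. Peaks were ranked by q score, a log-scaled FDR in which a higher value is a stronger peak. Among the 50 highest peaks, 16 (replicate 1) and 23 (replicate 2) overlapped snRNA loci, and among the 1000 highest, 26 and 31 did. The 1000 highest peaks held 30 of the 54 loci in replicate 1 and 33 of the 43 in replicate 2. In all, 49 peaks of 58351 in replicate 1 and 40 of 38832 in replicate 2 overlapped a locus. The median q score over loci with a peak was 592 in replicate 1 and 526 in replicate 2, beside list medians of 41.4 and 39.5. The log2 ratio over control had a median of 5.22 and 4.65 at the loci, beside 2.85 and 2.77 over the lists. The peaks were broad, with a median width over the loci of 2457 bp and 2188 bp beside 738 bp and 697 bp.

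**Figure D1:**
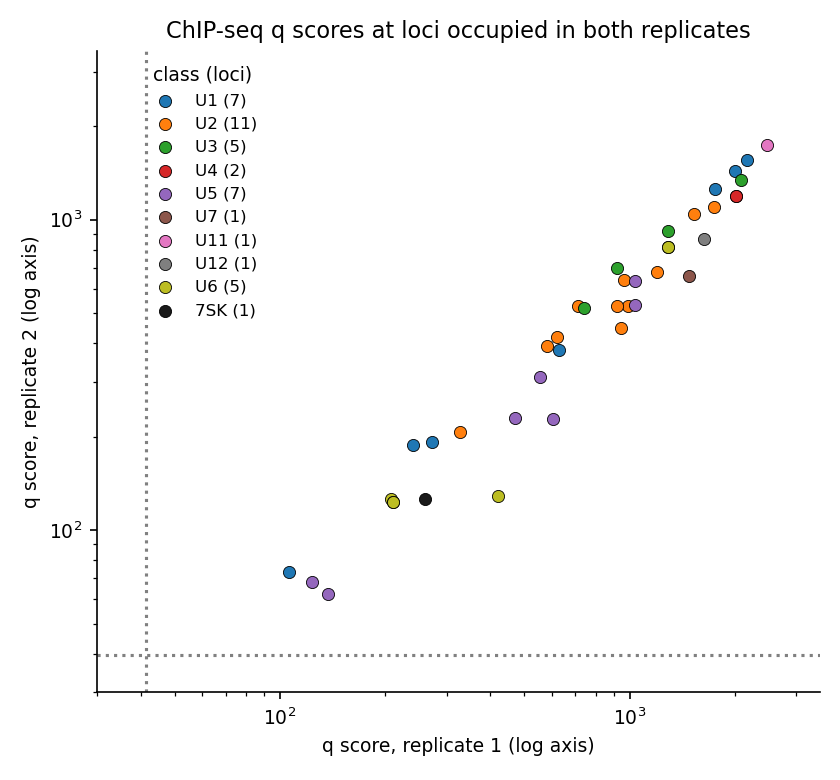
q score in ChIP-seq replicate 1 (horizontal, log axis) against replicate 2 (vertical, log axis) for the 41 loci with a peak in both, coloured by class. Dotted lines mark the median q score of each whole list, 41.4 and 39.5. Every point lies above both lines, and the U1, U3, U4 and U11 loci reach highest.

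The loci occupied in both replicates were in great part Pol II-type genes. Of 265 loci of the Pol II-type classes (U1, U2, U3, U4, U5, U7, U11 and U12), 35 were occupied, which is 13.2%. Of 729 loci of the Pol III-type classes (U6, U6atac and 7SK), 6 were occupied, which is 0.823%. The Pol II-type share was 14.0% in replicate 1 and 13.6% in replicate 2, while the Pol III-type share was 2.33% and 0.960%. Among loci at least 90% identical to a named gene of their class, 33 of 67 Pol II-type loci and 6 of 311 Pol III-type loci were occupied. The 3 loci outside these classes had no peak.

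**Figure D2:**
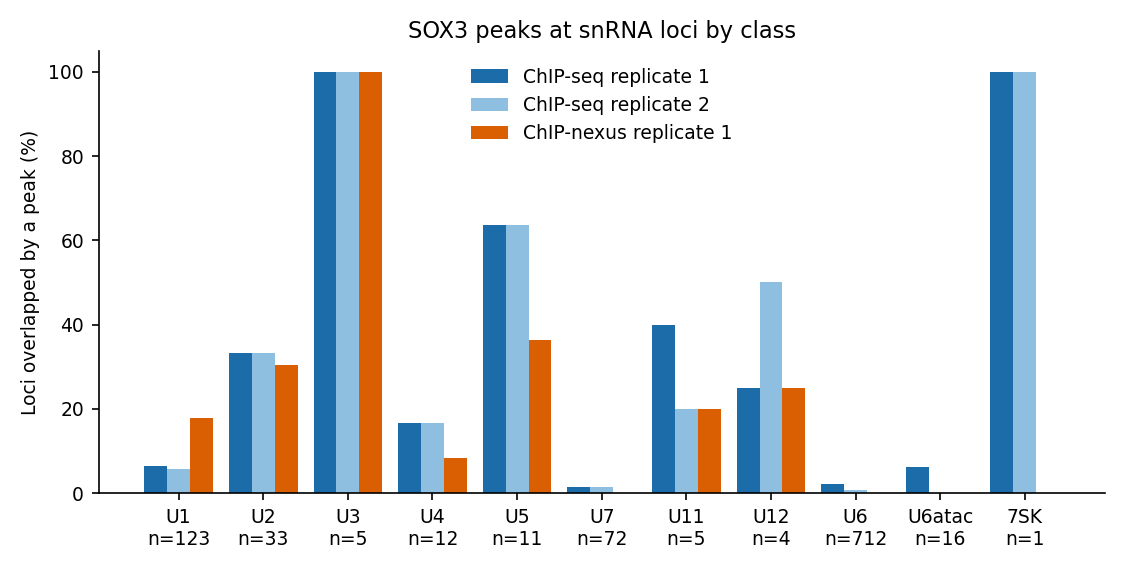
Percentage of the loci of each class that overlapped a peak (vertical), by class with its number of loci (horizontal), for both ChIP-seq replicates and ChIP-nexus replicate 1. The bars of U3 reach 100% in all 3 lists, U7, U6 and U6atac stay below 10%, and no U6, U6atac, U7 or 7SK locus had a ChIP-nexus peak.

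All 5 U3 loci were occupied. Rnu3a, on chr10:40258468-40258679, had a q score of 2087 in replicate 1 and 1341 in replicate 2, rank 4 in each list. Its start lay 756 bp from that of Gtf3c6, a subunit of the Pol III factor TFIIIC, and the same peak served both. The 4 Rnu3b genes lay in a cluster on chromosome 11, 15646 bp or more from any protein-coding start. Rnu3b1 and Rnu3b3 shared 1 replicate 1 peak of 8722 bp with a q score of 1291, and in replicate 2 had separate peaks of 814 and 917. That shared peak also covered Gm23137, a U6 copy between them, which is counted among the occupied U6 loci. Rnu3b4 had 922 and 698, and Rnu3b2 had 740 and 518. Within the cluster the order of the 4 genes therefore differed little between replicates, with Rnu3b2 lowest in each.

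Among the 123 U1 loci, 7 were occupied. Gm22513, on chr12:54696782-54696945, reached 2167 and 1560, rank 2 in each replicate, with a log2 ratio of 7.78 and 5.75. The log2 ratio of Gm22513 in replicate 1 was the highest of all the loci. Gm22068 reached 1999 and 1440, and Rnu1a1, the named U1a gene near it, 1759 and 1255. Gm24830 on chromosome 3 had 629 and 381. LOC115488077, Gm22634 and LOC115488065, in the chromosome 12 cluster around Gm22513, were far lower, with 273 and 192, 241 and 188, and 106 and 73.2. LOC115488077 and LOC115488065 had the narrowest peaks of all the loci, 366 bp and 335 bp in replicate 1.

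For U2, 11 of 33 loci were occupied, 10 of them on chromosomes 1 and 11 and 1 on chromosome 12. LOC115487916 had q scores of 1748 and 1101, and Rnu2-10, the named gene, 1525 and 1042. Gm25939, Gm24497 and Gm25360 on chromosome 1 had 1198 and 678, 987 and 526, and 945 and 447. Gm23971 on chromosome 11 had 963 and 637. The lowest was Gm23472 on chromosome 1, with 327 and 208. All 11 occupied U2 loci thus lay far above the list medians in both replicates.

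U5 was occupied at 7 of 11 loci. Rnu5g and the copy Gm25313 lay next to each other on chromosome 9 and shared 1 replicate 1 peak of 7973 bp with a q score of 1035, while replicate 2 gave 530 at Rnu5g and 636 at Gm25313. The other 5 ranged from 124 to 603 in replicate 1 and from 62.4 to 312 in replicate 2, the lowest being Gm22265 and Gm23287.

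Of the 12 U4 loci, Gm24265 and Gm24407 were the ones occupied. They lay next to each other beside Sirt4 on chromosome 5 under 1 peak with q scores of 2015 and 1194, rank 6 in each replicate. No U4 gene carries an Rnu name in the annotation, so these high values belong to loci listed as predicted.

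U11, U12 and U7 each had 1 occupied locus. Rnu11, on chr4:132270079-132270186, held rank 1 in each replicate, at a q score of 2472 and 1744 and a log2 ratio of 6.46 and 5.38. Its start lay 4169 bp from the nearest protein-coding start, that of Taf12. Rnu12, 267 bp from Poldip3, had 1629 and 869, and Rnu7, 217 bp from Grcc10, 1484 and 660. The other 71 U7 loci had no ChIP-seq peak in either replicate, and they matched Rnu7 at 64.5% to 83.9% of its bases. The U11 copy Gm24890 had a peak in replicate 1 alone (144), and the U12 copy Gm23502 in replicate 2 alone (47.4).

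The Pol III-type loci lay much lower. Rn7sk, on chr9:78175302-78175633, had q scores of 260 and 126, rank 3759 and 2591. Among 712 U6 loci 5 were occupied. Besides Gm23137 these were Gm26243 (420 and 129) and Gm24019 (208 and 126) on chromosome 10, and LOC115488100 and Gm23296 on chromosome 12. The chromosome 12 pair lay on opposite strands, read toward each other and shared 1 peak (211 and 123). A replicate 1 peak without a replicate 2 peak was seen at 10 U6 loci, the lowest of them, Gm25628, just above the list's minimum of 30, and Gm23421 had a replicate 2 peak alone. For U6atac, Gm25541 had a replicate 1 peak (114) that replicate 2 lacked. Rnu6, the named U6 gene of the annotation, had no peak in any list, and its nearest ChIP-seq peak was 109931 bp away in replicate 1 and 210863 bp away in replicate 2.

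Of the 16 named genes (symbols starting Rnu or Rn7sk), 12 were occupied, and of the 980 predicted copies 29 were, which is 2.96%. The 4 named genes without a ChIP-seq peak in either replicate were Rnu1b1, Rnu1b2 and Rnu1b6, all U1b genes of chromosome 3, and Rnu6. Within the Pol II-type classes, 11 of 14 named genes and 24 of 251 predicted copies were occupied. The highest predicted copies (Gm22513, Gm22068, Gm24265, Gm24407 and LOC115487916) ranked between 2 and 11, among the named genes. The heights of named and predicted loci thus overlapped.

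Loci were also split by distance to the nearest protein-coding start. Near such a start, a peak of the neighbouring promoter cannot be told apart from one of the snRNA gene. In both replicates, 57.5% of protein-coding genes had a peak within 2 kb of a start site. Of all genes, 23.5% had one over the start base. Of 59 loci within 2 kb of a protein-coding start, 11 were occupied (18.6%), and of 938 isolated loci 30 were (3.20%). The same order held within the Pol II-type classes, with 9 of 21 and 26 of 244 loci, and within the Pol III-type classes, with 2 of 37 and 4 of 692. Isolated Pol II-type loci nevertheless had high peaks, with a median q score of 740 and 518, beside 1873 and 1194 at those within 2 kb. Replicate 2 peaks at the 27 isolated Pol II-type loci with one were centred near the gene, with the peak midpoint between −492 and 555 bp from the start and a median of 18 bp. In replicate 1, whose peaks were wider, 20 of 27 had the midpoint within 500 bp.

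The ChIP-nexus lists gave another view of the same class. Of 110 peaks of replicate 1 on mouse chromosomes, 44 overlapped snRNA loci, 1 locus each. The 18 peaks of replicate 2 overlapped none, so every ChIP-nexus value below rests on 1 library. Per the study's reporting summary, both ChIP-nexus libraries kept very few unique reads beside the ChIP-seq libraries, so the lack of a ChIP-nexus peak is weak evidence, and the part of depth in these counts was not tested. Over the start base, a replicate 1 ChIP-nexus peak was found at 38 of the 997 loci (3.81%) and at 0.101% of all genes, 50 in number. The fold over background at the 44 ranged from 4.72 to 24.9 with a median of 14.9, and the other 66 peaks ranged from 3.85 to 55.3 with a median of 6.11. The highest folds of the list were therefore at peaks without an snRNA locus. All 44 loci were of Pol II-type classes, with 22 of U1, 10 of U2, 5 of U3, 4 of U5 and 1 each of U4, U11 and U12. ChIP-seq and ChIP-nexus coincided at 29 loci, each of them occupied in both ChIP-seq replicates.

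The order of heights differed between the assays. Rnu11, first in both ChIP-seq lists, had a ChIP-nexus fold of 7.62, Rnu3a 7.68, Rnu12 6.56 and Rnu5g 5.74. The U3b genes had 24.1 (Rnu3b3), 24.0 (Rnu3b1), 22.8 (Rnu3b4) and 21.6 (Rnu3b2), and the U2 copy Gm23971 22.8. Rnu1a1 had 22.5, Gm22634 23.6, LOC115488077 19.4 and LOC115488065 18.2. Those last 3 U1 loci were among the lowest by ChIP-seq. Rnu7 and Rn7sk, occupied by ChIP-seq, had no ChIP-nexus peak.

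A further 15 loci, all U1, had a ChIP-nexus peak and no overlapping ChIP-seq peak. The highest fold of all the loci, 24.9, was at one of them, Gm22317 of the chromosome 12 cluster, followed in this set by Gm25679 (22.8), Gm25890 (19.97), Gm26444 (19.9) and Rnu1b2 (19.3). Gm24924 and Rnu1b1 both had 18.4, Gm22614 18.2, Gm26244 17.3, LOC115489800 16.4, Gm23238 15.5 and Gm22042 11.6. The lowest were Rnu1b6 (9.67), Gm25189 (8.70) and Gm26110 (7.74). ChIP-seq peaks were sometimes close by, 78 bp and 73 bp away in the 2 replicates at Gm22317 and 170 bp and 165 bp away at Gm25890. Others were far from any, and at Gm22042 the nearest ChIP-seq peak was 625741 bp away in replicate 1.

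**Figure D3:**
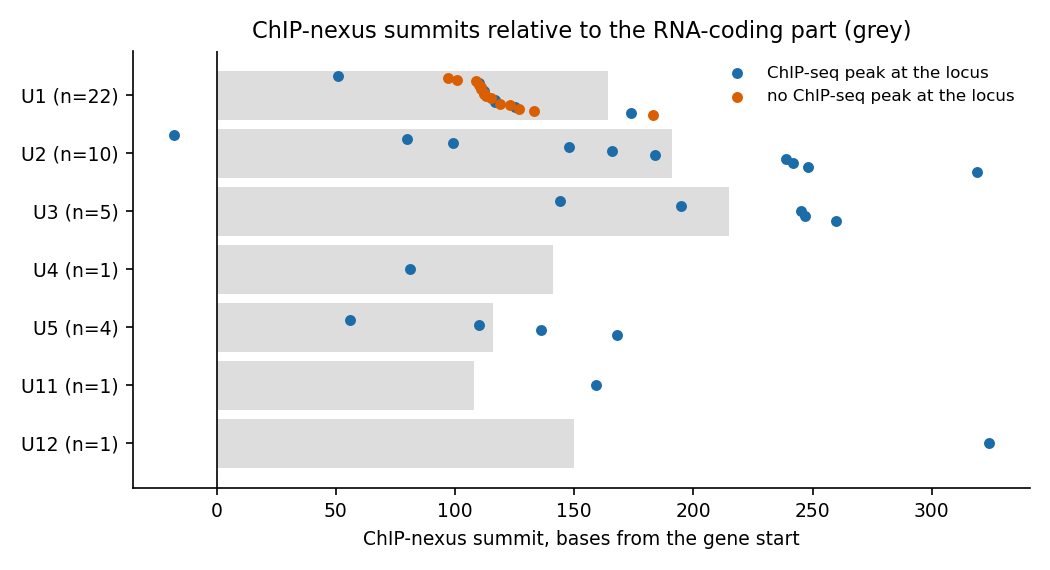
Position of the ChIP-nexus replicate 1 summit in bases from the gene start (horizontal) for each of the 44 loci, by class (vertical). Grey bars span the median length of the RNA-coding part. Blue points are loci with an overlapping ChIP-seq peak and orange points the 15 U1 loci without one, and most points lie within or downstream of the grey bars.

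ChIP-nexus summits lay over or after the RNA-coding part and rarely over the promoter. Of the 44 summits, 30 were inside the gene, 13 downstream of it and 1 upstream, 18 bp before the start of the U2 copy Gm22973. The median distance from the start was 121 bp. The largest was 324 bp, at Rnu12, a 150 bp gene that its ChIP-nexus peak reached only at the end. For U1 the summits fell between bases 52 and 184 counted from the first base of the RNA. Bases 112 to 123 are the range from the first to the third quartile of these same 22 summits. That 10 of 22 lie in this range therefore follows from how it was set, and it does not mark a binding site. The U1 peaks themselves were 517 to 857 bp wide. The sequence of the U1 RNA gene shows where the quartile range lies, with those bases in capitals (Rnu1a1, chr11:87422867-87423030, plus strand).
Rnu1a1: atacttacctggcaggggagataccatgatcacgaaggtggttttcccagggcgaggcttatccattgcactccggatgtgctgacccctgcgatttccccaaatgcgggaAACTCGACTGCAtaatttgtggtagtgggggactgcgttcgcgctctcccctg

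Many of these loci are near-identical copies. The authors assigned reads that fitted several places to one of them at random, so copies with the same sequence shared reads, and the part this had in the values below was not tested. Identity was measured as the percentage of bases of the nearest named gene of the class that were matched without an edit. All 22 U1 loci with a ChIP-nexus peak were at least 96.3% identical to a named U1 gene. Of the 19 U1 loci at 98% or more, 19 had a ChIP-nexus peak and 7 a ChIP-seq peak in both replicates. From 95% to under 98% it was 3 and 0 of 6 loci, and of the 98 loci under 95% none had a ChIP-nexus peak and 1 had a ChIP-seq peak in a single replicate. The 7 U1 loci with exactly the Rnu1a1 gene sequence had ChIP-nexus folds between 16.3 and 24.9, while their ChIP-seq q scores in replicate 1 ran from no peak to 1999.

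In U2 the loci with peaks were likewise close copies. Of the 13 U2 loci at 95% identity or more to Rnu2-10, 10 had a ChIP-nexus peak and 11 were occupied by ChIP-seq, and of the 20 below 95% none had either. The U6 loci differed from this. The 184 loci at 95% or more to Rnu6 had no ChIP-nexus peak, and 5 were occupied by ChIP-seq. Of the 43 U6 loci with exactly the Rnu6 sequence, 1 (Gm25064, q score 152) had a ChIP-seq peak in replicate 1 and none in replicate 2. A high identity to the named RNA thus went with a ChIP-nexus peak in U1 and U2 and not in U6.

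**Figure D4:**
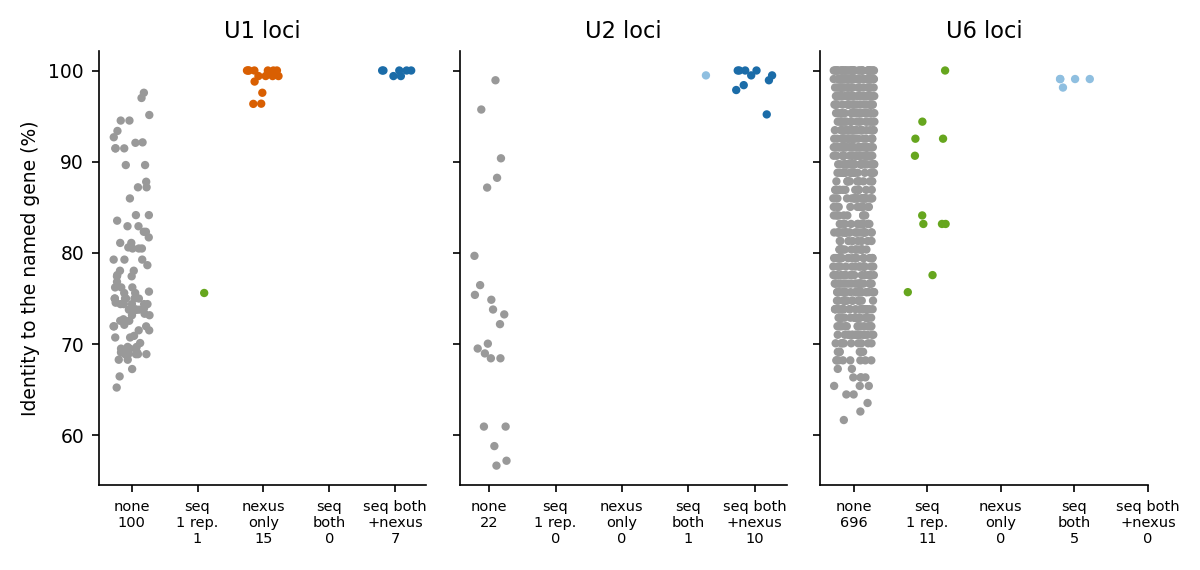
Identity of each locus to the nearest named gene of its class in percent (vertical) for U1, U2 and U6, sorted by the peaks that overlapped it (horizontal, with the number of loci). Points are loci, spread sideways for visibility. The U1 and U2 loci with ChIP-nexus peaks sit at 95% or more, and the U6 loci of like identity are mostly in the group without a peak.

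Promoter letters were compared in windows from 250 bases before to 50 bases after the start, on both strands. The octamer ATGCAAAT was present at 20 of the 35 occupied Pol II-type loci (57.1%), at 11 of the 227 without a ChIP-seq peak (4.85%) and in 2.34% of the windows of all genes. It stood at all 11 occupied U2 loci and at 1 of the 7 occupied U1 loci. The PSE-type pattern (ACC, then an A after any 3 letters, then AA after any 4) was present at 16 of the 35 (45.7%), at 53 of the 227 (23.3%) and in 14.5% of all windows. Most of the 16 were U2 loci, with the pattern at 10 of the 11 occupied U2 loci, 1 of the 5 U3 loci and none of the 7 U1 loci. The ACC blocks in capitals above for Rnu1a1, Rnu1b1, Rnu12 and Rn7sk do not match this pattern. A locus without it may therefore still have a PSE. The ZNF143-type pattern (CCCA, any 2 letters, then ATGC) was found at 4 of the 35, at 1 of the 227 and in 1.54% of all windows. The TATA-type letters TTTATA or TATATA, which can overlap each other, were found at 10 of the 35 (28.6%), at 88 of the 227 (38.8%) and in 22.9% of all windows. The SOX-type letters AACAAT or AACAAAG were found at 1 of the 35 occupied Pol II-type loci (2.86%), at 57 of the 227 (25.1%) and in 19.5% of all windows. The median GC content of the windows was 53.0% at the 35 and 38.3% at the 227, and many clustered copies share their promoter letters, so the loci are not independent.

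Letters at fixed positions were also counted, with patterns chosen after the sequences had been seen. An ACC starting 66 to 55 bases before the start on the same strand stood at 29 of the 35 occupied Pol II-type loci (82.9%), at 36 of the 227 without a ChIP-seq peak (15.9%) and at 14.5% of all genes. Among the occupied U3 loci it stood at 1 of 5, Rnu3a, and at none of the Rnu3b genes. Positions were counted from the RefSeq start, also at Rnu11, where the ACC counted was not the one in capitals above. None of the 35 had a run of at least 6 A or T letters starting 35 to 22 bases before the start, whereas all 6 occupied Pol III-type loci did, 5 of them together with the ACC. Such a run was present at 24.7% of the 227 Pol II-type and 34.2% of the 711 Pol III-type loci without a ChIP-seq peak, and at 17.7% of all genes. Of the 712 U6 loci 30 had both elements, and 6 of these had a ChIP-seq peak in at least 1 replicate. Among the 397 U6 loci with neither element, 5 had a replicate 1 peak and none a replicate 2 peak. Of the 15 U1 loci with a ChIP-nexus peak and no ChIP-seq peak, 10 had the positioned ACC, and of the 100 U1 loci with no peak in any list 9 had it.

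Genes linked to the synthesis, assembly or action of snRNAs or to Pol III formed a list of 35. Among them were the SNAPc subunits, ZNF143, some Integrator subunits and some Sm proteins. A ChIP-seq peak lay within 2 kb of a start site in both replicates at 34 of the 35 (97.1%), beside 57.5% of all 21774 protein-coding genes. The list was chosen with earlier results of these data known. No set of genes with like expression was set beside it, so what the difference reflects was not tested. Snapc4, the largest SNAPc subunit, had a replicate 1 peak alone (144). Zfp143, the mouse gene of ZNF143, had q scores of 710 and 303, Ints6 953 and 297, Hexim1, which binds 7SK RNA, 571 and 226, and Cdk9, the kinase of P-TEFb, 515 and 248. The median over the list was 229 and 112, and the highest value, at Gtf3c6, was that of the Rnu3a peak.

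Genes of other non-coding RNA classes of the same annotation were counted in the same way, and misc_RNA is a label that states no size. Of 1330 snoRNA genes 47 had a ChIP-seq peak in both replicates (3.53%), of 1228 miRNA genes 117 (9.53%), of 403 tRNA genes 135 (33.5%), of 92 misc_RNA genes 32 (34.8%) and of 62 rRNA genes none. Among isolated genes, more than 2 kb from a protein-coding start, the shares were 3.71% for miRNA, 1.46% for snoRNA, 28.6% for tRNA and 16.7% for misc_RNA genes, beside 3.20% for snRNA loci. No gene of these 5 classes had a ChIP-nexus peak in either replicate. Rmrp and Rpph1, the RNA subunits of RNase MRP and RNase P, which have Pol III-type promoters with a PSE, had q scores of 209 and 135, and 277 and 131. Rmrp lay 281 bp and Rpph1 126 bp from a protein-coding start, whereas Rn7sk lay 16333 bp from one. Rny1, a Y RNA gene, had a replicate 1 peak alone (201), Rny3 had none, and Vaultrc5, a vault RNA gene, had 80.7 and 30.1.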

How the data were processed

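SOX3 ChIP-seq and ChIP-nexus were measured in testis at postnatal day 7, with 2 replicates of each. Per the study's methods for ChIP-seq, the authors aligned reads to mm10 with Novoalign, assigned reads that fitted several places to one of them at random, and removed duplicates with Picard. The deposited ChIP-seq lists were called with USeq and hold, for each peak, a score (USeq's scaled −log10 of the p-value and of the FDR, the latter being the q score, above 30) and a log2 ratio over control. These columns carry no header and were read from the methods and their values. The deposited ChIP-nexus lists are narrowPeak files, called with MACS2 2.1.1 according to the submitters' processing notes, and hold a fold (a ratio over background) and −log10 p-values and q-values. The methods remove blacklisted regions from peaks with bedtools, but do not say whether the deposited lists are from before or after that step, and the control used for ChIP-nexus is not given in the sources used here. The lists hold no read counts, so no interval was computed. The study's reporting summary gives the reads of each library, with far fewer unique reads for ChIP-nexus than for ChIP-seq.

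Genes of biotype snRNA were taken from RefSeq GRCm38.p6, with the class from the product name, and overlapped with the peaks by at least 1 base. Where several peaks overlapped, the highest ranked was used. Identity was computed with edlib 1.3.9 by placing each named gene of the class within the locus and 20 bases on either side. The overlap code was tested on simulated intervals against bedtools. The members and lists were chosen with earlier results of these data known, tRNA genes and the positioned motifs were added after the values were seen, and no test was run, since the class was chosen by peak height. Named genes with a peak in both replicates, the highest ranked predicted copies, the loci with a ChIP-nexus peak and the named genes without a ChIP-seq peak were named in the text. The study describes the replicates as independent biological ones, and the labels do not say which animals they came from. The 15 other samples were not analysed here.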

Additional observations from a re-analysis of the deposited data

How the results depend on the processing

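The number of loci occupied in both ChIP-seq replicates was 41 and stayed within 1.5 times that under every alternative tried. The number ran from 30 (isolated loci only, chosen after seeing the data) to 61 (peak within 500 bp of the gene). It was 43 and 54 with 1 replicate left out. The GENCODE annotation types another set of 1383 genes as snRNA, and 40 of these were occupied, which need not be the same loci. The share of named minus predicted loci was 72.0 percentage points. It was 70.0 with peaks within 500 bp, 67.0 over isolated loci, and 70.7 to 71.8 with a replicate left out. The share of promoter-proximal minus isolated loci was 15.4 percentage points. It was 29.0 at 1 kb, 7.10 at 5 kb and 33.1 with peaks within 500 bp, and 17.03 to 21.3 with a replicate left out. The Pol II-type minus Pol III-type share was 12.4 percentage points, 47.3 among loci at least 90% identical to a named gene (which leaves out U4 and U6atac, as no named gene exists), 10.1 over isolated loci, and 11.6 to 12.6 with a replicate left out. No direction changed. The 44 ChIP-nexus loci came from replicate 1, and the count ran from 0 to 44 with a replicate left out and was 29 where a ChIP-seq peak was also required (added after seeing the data). The mean of the 2 median q scores was 559 and ranged from 514 to 592. No paired analysis was possible because no result comes from a test. Random placement of reads among identical copies limits which copy of a cluster a value belongs to.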
